A study of Papio anubis with 34 samples.

Results

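Cortex libraries rich in CUX2 transcripts were compared with cortex libraries poor in them. CUX2 encodes a homeodomain transcription factor that, in the mammalian cortex, marks excitatory neurons of the upper layers, and its level was used here as a readout of how much upper-layer tissue a library held. Among 33 libraries, the 8 with the most CUX2 formed the high group and the 8 with the fewest the low group, so 16 of the 34 libraries of the series entered the contrast and 17 lay between the groups. The members were selected on 1 measured value, the CUX2 counts per 1000000 counts of the library (CPM). Because CUX2 chose the groups, its values are given as a description and it was left out of every test.

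The neocortex is built in layers. Upper layers hold excitatory neurons that mostly connect cortical areas with each other and carry genes such as CUX2, CUX1, RORB and CALB1. Deep layers hold neurons that project to the thalamus, brainstem and spinal cord and carry genes such as FEZF2, BCL11B, FOXP2 and TBR1, and below them lies white matter, where oligodendrocytes wrap axons in myelin. A piece of frozen cortex can take in more or less of each, together with the meninges at its surface. In bulk tissue, fewer cells of a type and less RNA per cell cannot be told apart.

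The animals were female olive baboons (Papio anubis) kept on monkey chow, with 1 library per animal, from brain tissue taken at necropsy that the series' design text places in the prefrontal cortex. Age was the only variable in the labels, and for naming the libraries the animals fall into a younger, a middle and an older band. The high group held 4 younger, 4 middle and 0 older animals and the low group 1, 3 and 4. The 1 library that the selection rule sets aside was not used. SLC17A7, a gene of cortical excitatory neurons, was present in every library of both groups (lowest value 361 CPM), and the labels do not say which layers or which part of the prefrontal cortex a block held.

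CUX2 ran from 134 to 263 CPM in the high group (median 182) and from 4.71 to 71.2 CPM in the low group (median 56.2). Just inside the high group was middle replicate 5 at 134 CPM, and just outside it younger replicate 7 at 129 CPM. Just inside the low group was older replicate 1 at 71.2 CPM, and just outside it middle replicate 8 at 71.4 CPM. Neither border fell in a gap of the CUX2 values. The 5 deposited transcript variants carried the CUX2 counts, and the variant annotated X3 held 72.7% of them in the high group, 68.6% in between and 67.1% in the low group.

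**Figure D1:**
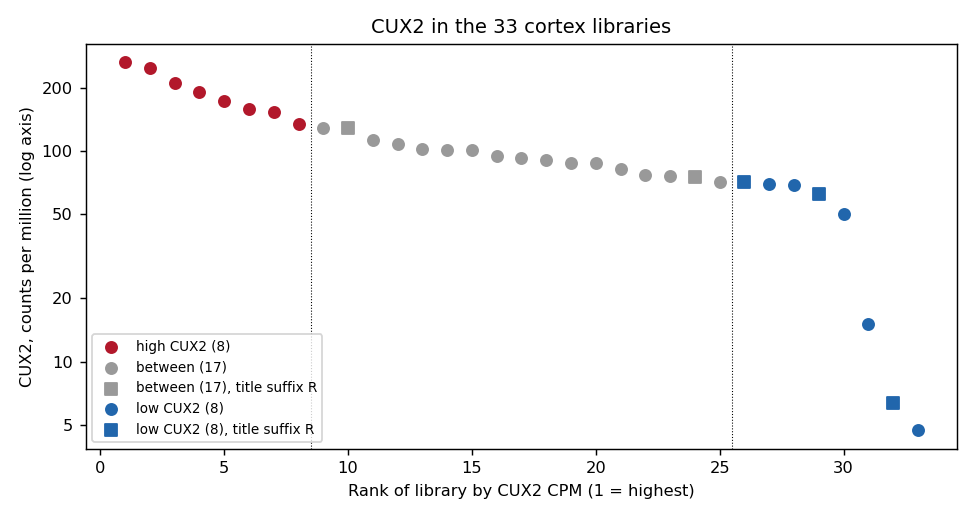
CUX2 CPM (log axis) for the 33 libraries in order of CUX2, with the high group in red, the libraries between in grey and the low group in blue. Squares are libraries whose title has an R after the sample number, and dotted lines mark the group borders. CUX2 declines gradually through rank 30 and then drops to 15.1, 6.36 and 4.71 CPM in the last 3 libraries.

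Some libraries stood apart, and counts are given without the 3 lowest and, for the main lists, without the 2 highest. The 3 lowest in CUX2 (older replicate 8 at 15.1, younger replicate 4 at 6.36 and older replicate 6 at 4.71 CPM) were well below the next, middle replicate 3, at 50.2 CPM. The 2 highest, younger replicate 5 at 263 and middle replicate 6 at 248 CPM, differed from the other 31 in many further genes, described below. Total counts ran from 2718702 to 9586301 in the high and from 2500762 to 15604035 in the low group, and log2 totals differed by -0.31 (exact permutation p = 0.458, two-sided). Animals of the high group were younger, with mean ages of 12.3 ± 3.55 against 16.9 ± 4.10 years (SD, n = 8 each), a difference of -4.60 years (exact permutation p = 0.0334, two-sided), so age and CUX2 group are partly confounded. Some titles carry an R after the sample number, a mark whose meaning the labels do not give. It belonged to 0 libraries of the high and 3 of the low group (Fisher's exact p = 0.2). No value can be had within the libraries marked R, since they held no high library. Each p measures the spread between animals.

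Of 15818 genes tested, 646 were higher in the high group (4.08%) and 812 were lower (5.13%) at an adjusted p under 0.05 (edgeR quasi-likelihood test, Benjamini-Hochberg). The median log2 fold change over all genes was 0.00. For 76 genes (0.480%) every high library lay above every low library, and for 207 (1.31%) every high library lay below. Without the 3 libraries lowest in CUX2, 155 genes were higher (0.968%) and 329 lower (2.05%). Without the 2 highest, 576 and 716 passed. With age as a covariate 187 and 433 passed, and with the R libraries left out 462 and 707.

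Genes of upper-layer excitatory neurons were higher where CUX2 was high. Of 36 listed genes other than CUX2, 34 were tested, and 11 were higher and 0 lower, against 4.08% of all genes higher. The median log2 fold change of the list was 0.69, and 32 of the 34 values were above 0. The genes that passed span several kinds of function: HPCAL1 encodes a neuronal calcium sensor, CALB1 the calcium buffer calbindin, INHBA a subunit of activin, ACVR1C an activin-type receptor kinase, NTNG1 an axonal adhesion molecule of the netrin family, and PENK the precursor of enkephalin peptides.

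HPCAL1 was at 106 CPM at the lowest, 139 at the median and 178 at the highest of the high group, and at 60.5, 66.7 and 107 CPM in the low group. Its groups touched only through older replicate 4, the single low library above 71.8 CPM. The log2 fold change was 0.94 ± 0.12 (SE), with an adjusted p of 0.000289.

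PENK (GeneID 100998982) gave the smallest p of all genes that were higher. Its levels were 5.20, 9.14 and 15.4 CPM (lowest, median, highest) in the high group and 1.63, 2.05 and 3.60 CPM in the low group, with no overlap. The log2 fold change was 2.10 ± 0.24 (adjusted p = 0.00028), and it was 1.93 without the 3 lowest libraries and 2.04 without the 2 highest.

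CALB1 ran from 21.6 to 94.5 CPM in the high group (median 46.7) and from 8.45 to 32.2 CPM in the low group (median 14.9). The groups overlapped only through middle replicate 6, at 21.6 CPM. That library and younger replicate 5, the pair with the most CUX2, had the least CALB1 of the high group. The log2 fold change was 1.54 ± 0.29 (adjusted p = 0.00221).

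INHBA was at 7.24 to 17.3 CPM against 2.73 to 7.79 CPM (log2 fold change 1.26 ± 0.22, adjusted p = 0.00112), and ACVR1C at 39.1 to 91.8 against 19.0 to 47.6 CPM (1.07 ± 0.19, adjusted p = 0.0012). In INHBA a single library of each group overlapped, and in ACVR1C 1 high library lay below 2 low libraries. NTNG1 was at 16.6 to 68.1 against 4.62 to 22.96 CPM (1.46 ± 0.35, adjusted p = 0.0119), but its value without the 3 lowest was 1.04 (adjusted p = 0.12) and without the 2 highest 0.97 (adjusted p = 0.071).

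The best known partners of CUX2 did not pass. RORB, a nuclear receptor of layer 4 neurons, ran from 72.4 to 495 CPM in the high group (median 137) and from 34.02 to 215 CPM in the low group (median 86.5), with a log2 fold change of 1.13 ± 0.44 (adjusted p = 0.125). CUX1, the closest relative of CUX2, had a log2 fold change of 0.97 ± 0.33 (adjusted p = 0.0751), and LAMP5, a lysosome-associated membrane protein of superficial neurons, 0.40 ± 0.14 (adjusted p = 0.0746). For RORB and CUX1 the difference rested on the 2 highest libraries: without them it was 0.40 (adjusted p = 0.65) and 0.12 (adjusted p = 0.41).

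Dropping those 2 libraries raised the number of upper-layer genes that passed from 11 to 18, and dropping the 3 lowest reduced it to 6. With age as a covariate 6 passed. Leaving out any single library gave 11 to 16. As a score (the mean z-score of log2 CPM over the list), the upper-layer list lay between 0.061 and 0.82 in the high and between -1.09 and -0.065 in the low group, so that the groups did not overlap.

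Genes of deep-layer excitatory neurons went the other way. Of 35 tested genes, 22 were lower in the high group and 0 higher, against 5.13% of all genes lower, and the median log2 fold change was -0.86. The number lower was 20 without the 2 highest libraries, 12 without the 3 lowest, 16 with age as a covariate and 16 to 22 when single libraries were left out. In 7 of the 35 the groups did not overlap, against 1.31% of all genes.

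SEMA3E (GeneID 101014250), a secreted semaphorin of deep-layer neurons, was at 3.39, 7.70 and 16.98 CPM (lowest, median, highest) in the high group. In the low group it was at 33.6, 55.6 and 114 CPM, so that every low library lay above every high library. The log2 fold change was -2.69 ± 0.34 (adjusted p = 0.000289) and -2.24 without the 3 lowest libraries.

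FEZF2, the transcription factor that specifies subcortical projection neurons, was at 1.32 to 11.5 CPM in the high group (median 4.45) and at 13.5 to 24.4 CPM in the low group (median 18.1), again with no overlap. Its log2 fold change was -1.74 ± 0.33 (adjusted p = 0.00215). RPRM, a gene of deep corticothalamic neurons that encodes the cell-cycle protein reprimo, was at 0.698 to 1.83 against 2.87 to 9.03 CPM (-2.06 ± 0.25, adjusted p = 0.00028).

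THEMIS was at 0.559 to 4.62 CPM in the high and 6.20 to 22.9 CPM in the low group (log2 fold change -2.54 ± 0.35, adjusted p = 0.000289). NXPH4, a neurexophilin of the deepest cortical layer, had a log2 fold change of -2.97 ± 0.41 (adjusted p = 0.000289), with levels of 0.406 to 3.17 against 2.05 to 16.6 CPM that overlapped. FOXP2, a transcription factor of corticothalamic neurons, was at 5.66 to 28.9 against 21.3 to 43.9 CPM (-0.90 ± 0.27, adjusted p = 0.0409), and its value without the 3 lowest was -0.79 (adjusted p = 0.23).

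Other deep-layer regulators did not pass. TBR1 had a log2 fold change of -0.35 ± 0.20 (adjusted p = 0.322), BCL11B -0.39 ± 0.19 (adjusted p = 0.223), and PCP4, a calmodulin regulator, 0.02 ± 0.38 (adjusted p = 0.984). In all 3 genes the value moved by over 1.5 times without the 2 highest libraries. BCL11B was then at -0.18 (adjusted p = 0.377). PCP4 stood at 45.2 and 43.2 CPM in these and at 4.61 to 30.04 CPM in the other 31, and without them the log2 fold change was -0.92 (adjusted p = 0.0125). TBR1 without them was -0.68 (adjusted p = 0.006).

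**Figure D2:**
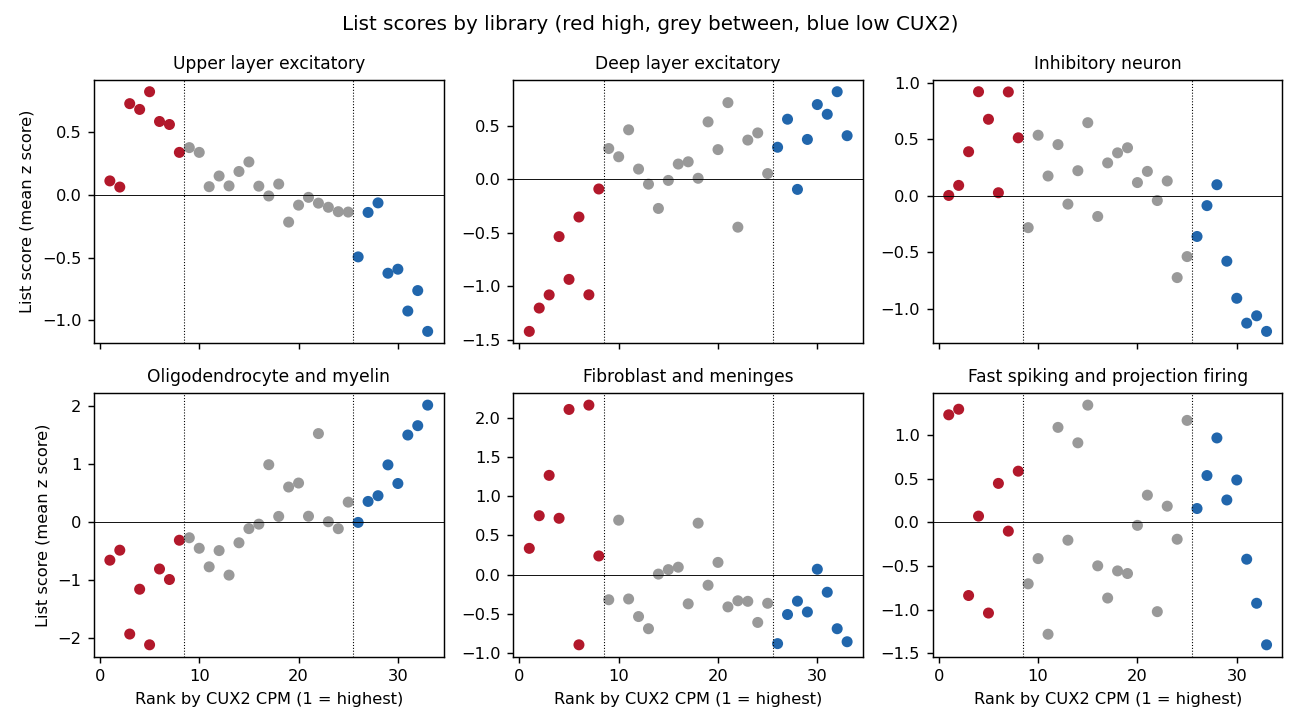
Mean z-score of 6 gene lists (y axis) for the 33 libraries in order of CUX2 (x axis), coloured by CUX2 group. The upper-layer score is highest at ranks 3 to 7 (0.56 to 0.82), is 0.11 and 0.06 at ranks 1 and 2, and is lowest in the last library (-1.09), while the oligodendrocyte score rises to 2.02 in the library of lowest CUX2.

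Oligodendrocyte and myelin genes were lower throughout the list. All 26 tested members were lower in the high group and 0 higher, against 5.13% of all genes lower. In 21 of the 26 the groups did not overlap, against 1.31% of all genes. The median log2 fold change of the list was -2.29. When the 2 highest libraries were dropped or age was a covariate 26 of 26 were lower, and 23 of 26 without the 3 lowest.

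MBP (GeneID 101022793), which encodes myelin basic protein, was at 516, 1074 and 1733 CPM (lowest, median, highest) in the high group. In the low group it was at 2349, 5235 and 10180 CPM, with no overlap and with the highest values in the 3 libraries of lowest CUX2. The log2 fold change was -2.53 ± 0.33 (adjusted p = 0.000289), and -1.90 without those 3 libraries (adjusted p = 0.00517).

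MOBP, another myelin protein gene, was at 41.9 to 166 CPM against 297 to 1783 CPM (log2 fold change -2.96 ± 0.39, adjusted p = 0.000289). GJB1, a gap junction protein of oligodendrocytes, was at 1.58 to 10.7 against 14.9 to 84.9 CPM (-2.87 ± 0.38, adjusted p = 0.000289). Neither gene overlapped between the groups.

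Precursors of oligodendrocytes differed less evenly: of 15 tested genes, 5 were lower and 1 higher, against 5.13% and 4.08% of all genes. Without the 3 lowest 1 was lower and 1 higher, against 2.05% and 0.968% of all genes. OLIG2, a transcription factor of the whole lineage, was at 10.2 to 20.9 against 17.2 to 37.0 CPM (log2 fold change -0.88 ± 0.17, adjusted p = 0.00201), while SOX6, which is shared with inhibitory neurons, had a value of 0.49 ± 0.12 (adjusted p = 0.00974).

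The oligodendrocyte score separated the groups completely, at -2.12 to -0.31 in the high and -0.0062 to 2.02 in the low group, so CUX2 content and myelin content cannot be told apart here. With this score as a covariate, 0 genes passed in either direction by edgeR (370 higher and 388 lower at an unadjusted p under 0.05), 2 and 3 by DESeq2 and 0 and 0 by limma-voom. In that fit 8 of the 34 upper-layer genes were higher and 1 lower at an unadjusted p under 0.05, against 2.34% and 2.45% of all genes, and 12 of the 35 deep-layer genes were lower. At the same p 1 of the 28 inhibitory neuron genes was higher, and of the 19 fibroblast genes described below 0 were higher and 1 lower. Of the genes called in the contrast, 593 of 646 higher ones (91.8%) and 577 of 812 lower ones (71.1%) kept their sign in that fit.

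Inhibitory neuron genes were higher in the high group. Of 28 tested, 15 were higher and 0 lower, against 4.08% of all genes higher, with a median log2 fold change of 0.56. The number was 14 without the 2 highest libraries, 7 with age as a covariate and 4 of 29 without the 3 lowest, where 0.968% of all genes were higher. The list covers the enzymes and transporters of GABA and the markers of interneuron subclasses.

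GAD1, which makes GABA, was at 184 to 274 CPM (median 222) against 84.8 to 194 CPM (median 132), a log2 fold change of 0.69 ± 0.14 (adjusted p = 0.00278). DLX1, a transcription factor of interneuron development, had a value of 0.73 ± 0.16 (adjusted p = 0.0044).

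Markers of some subclasses passed and others did not. ADARB2, which marks interneurons born in the caudal ganglionic eminence, was at 39.3 to 92.8 CPM in the high and 14.3 to 42.2 CPM in the low group (log2 fold change 1.31 ± 0.22, adjusted p = 0.00111). VIP, a peptide of a subset of the same cells, was at 11.5 to 23.1 against 2.98 to 14.8 CPM (1.07 ± 0.24, adjusted p = 0.00615). SST and PVALB, which mark interneurons born in the medial eminence, did not pass, with values of 0.21 ± 0.20 (adjusted p = 0.621) and 0.91 ± 0.45 (adjusted p = 0.253). In both genes the 2 libraries of highest CUX2 lay apart. SST was at 17.9 and 15.6 CPM in them, 27.6 to 49.6 CPM in the other 6 high libraries and 21.75 to 36.2 CPM in the low group. PVALB was at 71.7 and 72.4, at 7.015 to 34.3 and at 4.72 to 38.1 CPM in the same order. SOX6, also on the inhibitory list, was higher, as given above. Whether the subclasses differ from each other was not tested.

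A minority of the genes listed for excitatory neurons in general, or for all neurons, passed. Of 20 genes of excitatory neurons in general, 2 were higher and 4 lower (median log2 fold change 0.07), against 4.08% and 5.13% of all genes. Without the 3 lowest libraries 0 were higher and 0 lower. SLC17A7, the main cortical vesicular glutamate transporter, was at 361 to 761 CPM (median 488) against 584 to 1004 CPM (median 700), with -0.48 ± 0.14 (adjusted p = 0.0391) and -0.37 without the 2 highest (adjusted p = 0.13). SLC17A6, the transporter typical of thalamic neurons, was at 9.22 to 99.4 against 3.88 to 19.8 CPM (1.84 ± 0.53, adjusted p = 0.0336), and 0.83 without the 2 highest (adjusted p = 0.29).

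SNAP25, a synaptic protein of all neurons, gave -0.11 ± 0.11 (adjusted p = 0.607). Of 20 genes of neurons in general, 2 were lower and 0 higher (median -0.27), against 5.13% and 4.08% of all genes. Of the 20 values, 17 were below 0. The number lower was 4 without the 2 highest libraries, 5 without the 3 lowest, 6 by DESeq2, 1 with age as a covariate and 2 to 6 when single libraries were left out, with 6 without younger replicate 9. The 2 were STMN2, a microtubule regulator (-0.48 ± 0.12, adjusted p = 0.0102), and NEFM, a neurofilament subunit of large axons (-0.69 ± 0.16, adjusted p = 0.00974).

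**Figure D3:**
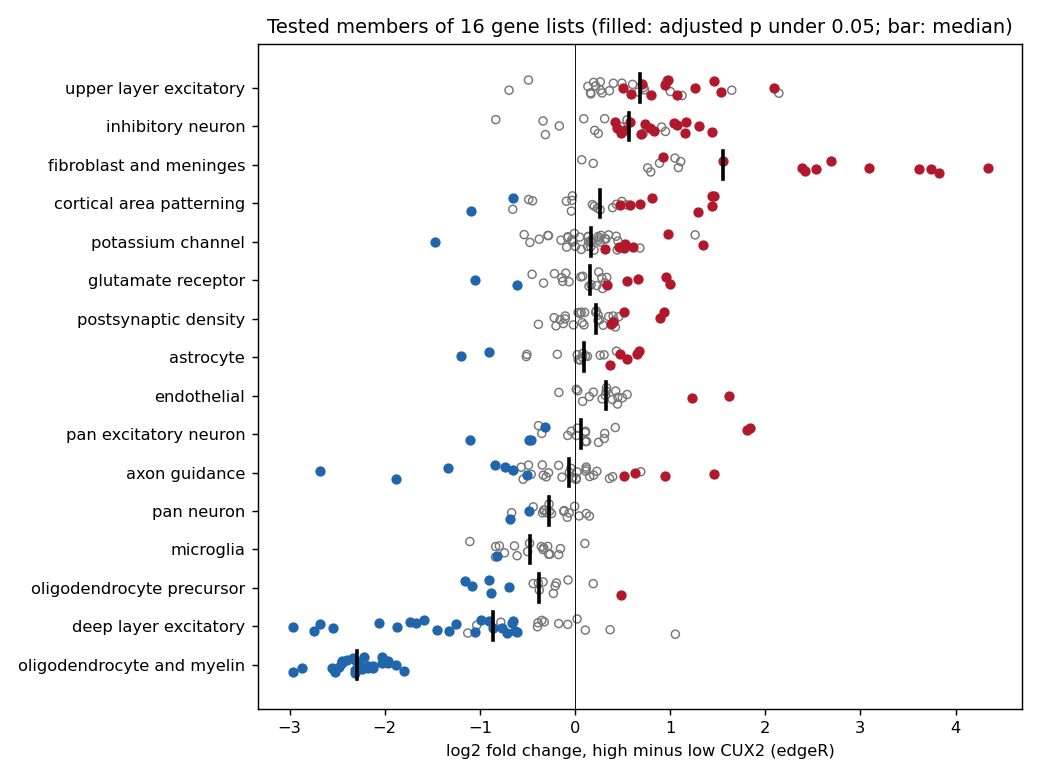
log2 fold change between the high and low CUX2 groups (x axis) for the tested members of 16 gene lists (rows); filled points passed at an adjusted p under 0.05, in red where higher and in blue where lower, and black bars are list medians. All 26 oligodendrocyte members lie left of 0, with a median of -2.29, and the upper-layer and deep-layer medians lie at 0.69 and -0.86.

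Genes of fibroblasts and meninges, the membranes on the cortical surface, were higher in the high group. Of 19 tested, 11 were higher and 0 lower, against 4.08% of all genes higher, with the highest list median of the contrast among the lists of 10 or more tested genes (1.55). Without the 3 lowest in CUX2, which left 8 against 5 libraries, 1 of 20 passed, against 0.968% of all genes, although the median stayed at 1.58. For the 8 highest against ranks 23 to 30, which also leaves those 3 libraries out, 11 of 19 were higher (median 1.29). In that comparison 386 of all 15361 genes tested were higher. With age as a covariate 4 of 19 passed. The list score was highest in younger replicates 2 and 10 (2.16 and 2.10), while middle replicate 7, also of the high group, had -0.90. The scores of the groups overlapped.

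COL1A2, a chain of type I collagen, was at 3.43, 29.7 and 130 CPM (lowest, median, highest) in the high and at 0.465, 3.82 and 9.09 CPM in the low group. Only middle replicate 7 lay within the low range. The log2 fold change was 3.74 ± 0.63 (adjusted p = 0.00112), and 3.68 without the 3 lowest (adjusted p = 0.0517).

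OGN and DCN, small proteoglycans of connective tissue, had log2 fold changes of 4.34 ± 0.74 (adjusted p = 0.00124) and 2.54 ± 0.45 (adjusted p = 0.00143). COL1A1 had one of 3.83 ± 0.68 (adjusted p = 0.00154). The haemoglobin genes HBB and HBA1, which belong to families of near-identical copies and are therefore uncertain, peaked in younger replicate 2 at 115 CPM each. HBB passed (1.99 ± 0.60, adjusted p = 0.0425, but adjusted p = 0.226 without the 3 lowest, where the value was 2.12) and HBA1 did not (1.76 ± 0.56, adjusted p = 0.0552).

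Other cell types showed smaller or mixed differences. Of 20 astrocyte genes, 5 were higher and 2 lower (median log2 fold change 0.10), against 4.08% and 5.13% of all genes. Without the 3 lowest libraries 1 was higher and 0 lower. SLC1A3 and SLC1A2, the glutamate transporters of astrocytes, had 0.67 ± 0.12 (adjusted p = 0.00112) and 0.47 ± 0.11 (adjusted p = 0.0101), S100B, a calcium-binding protein of astrocytes that oligodendrocytes also carry, -0.90 ± 0.20 (adjusted p = 0.00641), and the water channel gene AQP4 -0.50 ± 0.27 (adjusted p = 0.294). Of 19 microglial genes only CX3CR1, the fractalkine receptor, passed (-0.82 ± 0.23, adjusted p = 0.0302), and it did not without the 3 lowest libraries (-0.30, adjusted p = 0.4). Of the 19 microglial values 18 were below 0 (median -0.48), and 8 of 19 without the 3 lowest. The microglial score of those 3 libraries was 1.33 to 1.76, above every other library of the low group.

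Of 18 endothelial genes 2 were higher and 0 lower, against 4.08% and 5.13% of all genes, and 1 and 0 without the 3 lowest. Of the 18 values 17 were above 0 (median 0.33), and 15 of 18 without the 3 lowest. KDR, the main receptor for vascular growth factor, had 1.61 ± 0.36 (adjusted p = 0.0075), and CLDN5, a tight junction protein of brain vessels, 0.45 ± 0.29 (adjusted p = 0.409). Among 9 genes of mural cells, 2 were higher and 1 lower (0 and 1 without the 3 lowest). ACTA2, smooth muscle actin, had 2.11 ± 0.42 (adjusted p = 0.00325), and MCAM, an adhesion molecule, -1.32 ± 0.21 (adjusted p = 0.000713). The other lists of tissue outside the cortical wall were short, and over all genes 4.08% were higher and 5.13% lower. Of 13 striatal genes 2 were higher and 0 lower, and of 10 thalamic genes 3 and 1 (0 higher without younger replicate 4). Of 7 ependymal and choroid plexus genes 2 were higher and 1 lower (0 higher without middle replicate 9). Without the 3 lowest libraries these were 2 and 0 of 13, 0 and 1 of 10, and 1 and 0 of 9. The part of white matter, meninges and vessels in the neuronal differences was not tested.

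The 2 libraries with the most CUX2 had a profile of their own. They came from animals of 8.64 and 17.86 years, and each value below is given for younger replicate 5 first, then for middle replicate 6. These genes were singled out after their values were seen, and no test was made of this pair against the rest. The labels do not say whether these 2 blocks came from the same cortical area as the others, so cortical area and upper-layer content cannot be told apart in them.

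CUX1 stood at 478 and 470 CPM and at 92.5 to 135 CPM in the other 31 libraries. HTR1B, a serotonin receptor that inhibits transmitter release, stood at 54.8 and 38.2 CPM, against 1.74 to 9.83 CPM elsewhere. RORB was at 495 and 423 CPM, against 34.02 to 235 CPM. For all 3 genes both libraries lay above every other library.

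BHLHE22, a transcription factor of excitatory neurons, was at 58.9 and 52.4 CPM, SLC17A6 at 77.6 and 99.4 CPM, RORA, a nuclear receptor related to RORB, at 252 and 258 CPM, and KCNAB3, a potassium channel subunit, at 90.2 and 93 CPM. PVALB was at 71.7 and 72.4 CPM, above its range of 4.72 to 48.3 CPM elsewhere. SST went the other way, at 17.9 and 15.6 CPM, below its range of 20.5 to 54.3 CPM elsewhere. VIP, at 12.7 and 11.5 CPM, lay within its range of 2.98 to 23.1 CPM elsewhere. Of the genes lowest of all 33 in this pair, 2 mark excitatory neurons: BCL11B at 19.8 and 31.5 CPM (45.8 to 79.9 CPM elsewhere) and SLC17A7 at 361 and 379 CPM (432 to 1004 CPM elsewhere). Their upper-layer scores were only 0.11 and 0.06, below the other 6 libraries of the high group (0.34 to 0.82), and their deep-layer scores were the lowest of all, -1.42 and -1.20.

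Without these 2 libraries, 416 of the 635 higher genes that were still tested passed again, and 632 of the 809 lower genes. All of these genes kept their sign. Genes with a log2 fold change above 1.5 that no longer passed included SLC17A6.

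**Figure D4:**
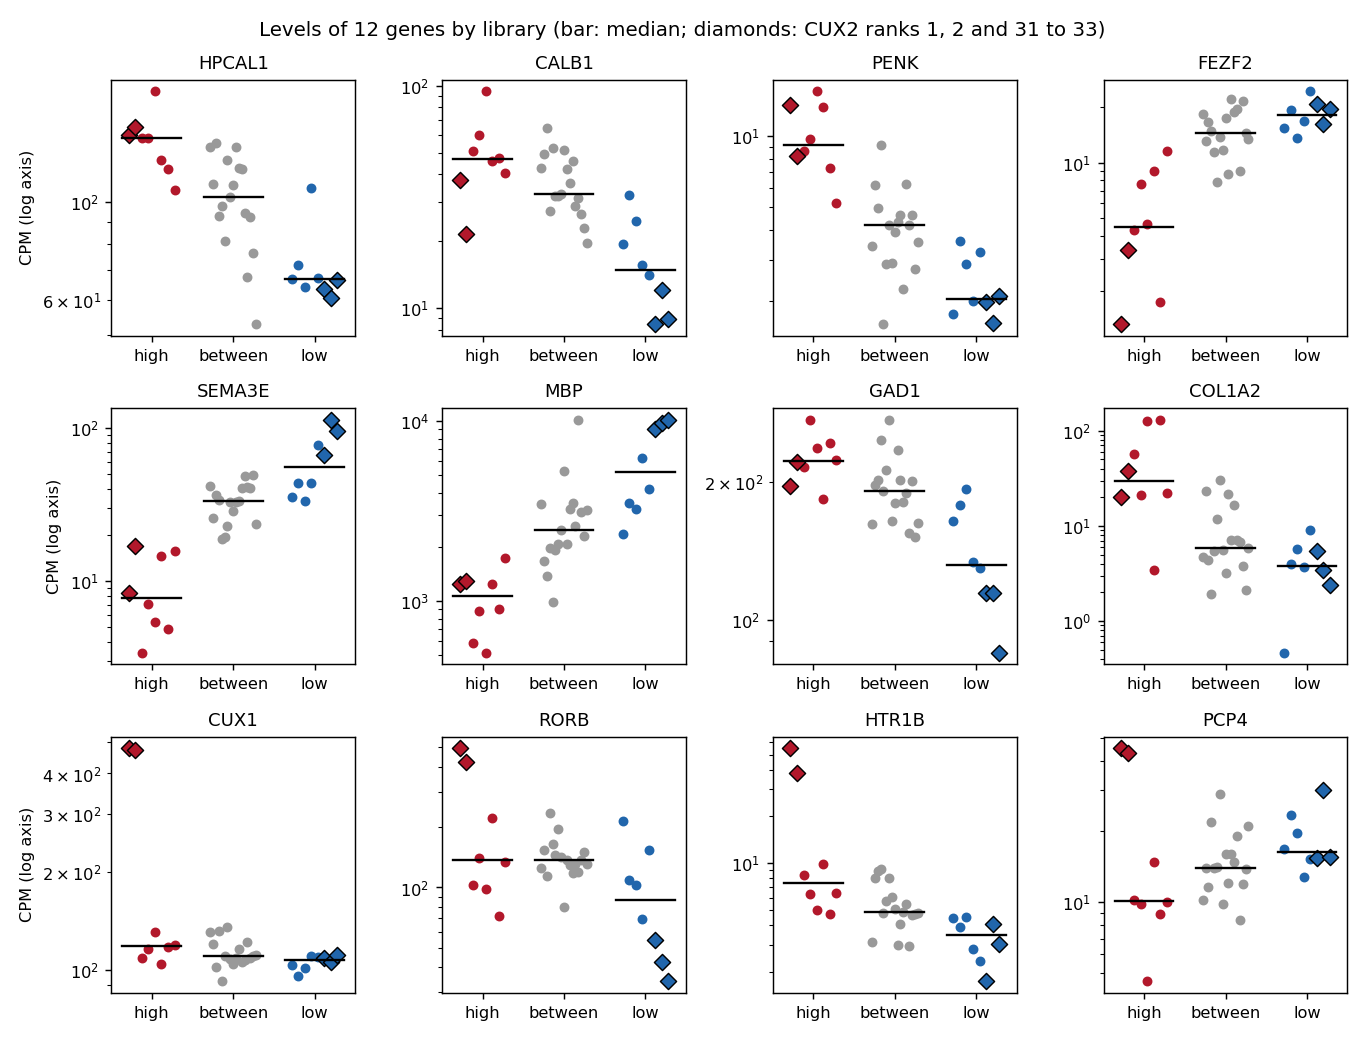
CPM (log axis) of 12 genes in the 8 high, 17 between and 8 low CUX2 libraries, 1 point per library, with the group median as a bar; diamonds are the 2 libraries of highest and the 3 of lowest CUX2. HPCAL1, CALB1 and PENK are higher and FEZF2, SEMA3E and MBP lower in the high group. CUX1, RORB, HTR1B and PCP4 are highest in the pair of highest CUX2, at 478 and 470 CPM for CUX1.

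Genes that pattern cortical areas in development, and guide axons there, differed in both directions. Of 25 area patterning genes 8 were higher and 2 lower (median log2 fold change 0.26). Of 37 axon guidance genes 4 were higher and 7 lower (median -0.06). Over all genes 4.08% were higher and 5.13% lower. Without the 3 lowest libraries the area patterning counts were 2 and 1 and the axon guidance counts 1 and 4, against 0.968% and 2.05% of all genes. EPHA6, an ephrin receptor, was at 54.6 to 89.9 CPM against 12.3 to 49.0 CPM with no overlap (1.29 ± 0.24, adjusted p = 0.00226). EPHA3, of the same family, was at 27.8 to 102 against 13.2 to 45.6 CPM (1.46 ± 0.27, adjusted p = 0.00201).

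MEIS2, a homeodomain transcription factor, was at 42.2 to 72.2 against 29.0 to 41.8 CPM with no overlap (0.58 ± 0.11, adjusted p = 0.00236). CDH6, a classical cadherin, was lower (-0.65 ± 0.14, adjusted p = 0.0042). Among guidance molecules the semaphorin SEMA3A was lower, at 1.93 to 13.4 against 12.6 to 36.6 CPM (-1.88 ± 0.31, adjusted p = 0.000871). PLXND1, the receptor for SEMA3E, was higher, at 48.7 to 90.0 against 18.3 to 49.4 CPM (0.94 ± 0.19, adjusted p = 0.00307), opposite in sign to its ligand. SLIT2, a secreted repellent, was also higher (0.63 ± 0.13, adjusted p = 0.0033).

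Receptors and channels changed in a minority of members. Without the 3 lowest libraries most of these calls were lost, as given for each list, while 0.968% of all genes were higher and 2.05% lower. Of 24 glutamate receptor genes 5 were higher and 2 lower (1 and 1 without the 3 lowest). GRIA4, an AMPA receptor subunit, was at 90.7 to 142 against 33.6 to 85.3 CPM with no overlap (0.96 ± 0.18, adjusted p = 0.00161). GRIK3, a kainate receptor subunit that is also on the deep-layer list, was at 47.8 to 89.2 against 90.6 to 203 CPM. Its groups did not overlap either (-1.05 ± 0.15, adjusted p = 0.000369). Of 16 GABA receptor genes 3 were higher and 2 lower, against 4.08% and 5.13% of all genes, and 0 and 0 without the 3 lowest. Without older replicate 8 alone 1 was higher, and without older replicate 6 alone 1 was lower. Those called included the subunits GABRA2 (0.73 ± 0.18, adjusted p = 0.0126) and GABRQ (-1.70 ± 0.43, adjusted p = 0.0155).

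Of 45 potassium channel genes 7 were higher and 1 lower, against 4.08% and 5.13% of all genes (2 and 1 without the 3 lowest). KCNIP2, a subunit that modulates A-type current, was at 80.9 to 196 against 47.5 to 73.7 CPM with no overlap (0.97 ± 0.17, adjusted p = 0.00106), and KCNH4, a voltage-gated channel, had 1.35 ± 0.28 (adjusted p = 0.00434). Of 29 receptors for serotonin, acetylcholine and monoamines 5 were higher and 2 lower (0 and 0 of 30 without the 3 lowest). HTR1B did not overlap between the groups even apart from the pair above, at 4.71 CPM or more in the high and 4.51 or less in the low group, and its log2 fold change of 2.34 ± 0.52 (adjusted p = 0.0065) was 1.003 without the pair (adjusted p = 0.0121). HRH2, a histamine receptor, had 0.69 ± 0.16 (adjusted p = 0.00859).

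Of 30 postsynaptic density genes 5 were higher and 0 lower, with NLGN1, an adhesion molecule, at 0.40 ± 0.11 (adjusted p = 0.022). In this list 2 were higher without younger replicate 10 and 1 with age as a covariate. Without the 3 lowest 0 were higher and 1 lower. Of 31 presynaptic genes 1 was higher and 3 lower, near the 4.08% and 5.13% of all genes, with 1 to 5 lower when single libraries were left out (1 without younger replicate 5) and 0 higher and 1 lower without the 3 lowest. Of 22 genes of fast-spiking cells and of firing in projection neurons 1 was higher, TPBG (1.72 ± 0.44, adjusted p = 0.0185), and 0 higher and 1 lower without the 3 lowest. Of 26 immediate early and activity genes 4 were higher and 0 lower (2 higher without younger replicate 10, and 1 without the 3 lowest), including FOSL2 (0.54 ± 0.13, adjusted p = 0.0106), while FOS itself gave 0.21 ± 0.36 (adjusted p = 0.81).

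Mitochondrial and ribosomal functions showed few calls. Of 13 mitochondrially encoded, 43 cytosolic ribosomal and 34 nuclear oxidative phosphorylation genes, 0 passed in either direction by edgeR (4, 2 and 0 higher and 0, 0 and 2 lower at an unadjusted p under 0.05). By DESeq2 and by limma-voom 1 ribosomal gene each was higher, and without the 2 highest libraries 2 mitochondrially encoded genes were higher by edgeR. Of 18 heat shock and stress genes 3 were lower and 0 higher, against 5.13% and 4.08% of all genes (1 and 0 without the 3 lowest). Of the 18 values, 14 were below 0.

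Outside the lists, the genes of smallest p that were higher included ARHGAP10, a GTPase-activating protein, SIPA1L1, a postsynaptic GTPase regulator, MAN1C1, a Golgi mannosidase, TPM1, a tropomyosin, LAMB1, a laminin chain, DAPK1, a calmodulin-regulated kinase, PTPRM, an adhesion phosphatase, CHRDL2 and SPATS2L. Their log2 fold changes ran from 0.51 to 3.06, and none overlapped between the groups. The value of 3.06 was that of CHRDL2, at 1.58 to 2.94 against 0 to 0.497 CPM, so its low group lay near the floor. Without the pair of libraries highest in CUX2, CHRDL2 was not among the genes tested. SIPA1L1 was at 356 to 429 against 234 to 300 CPM (0.51 ± 0.07, adjusted p = 0.000416). LAMB1 was at 25.8 to 67.0 against 7.87 to 21.9 CPM (1.52 ± 0.23, adjusted p = 0.000488).

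The genes of smallest p that were lower, beside SEMA3E, RPRM and MBP, were OLFML2B, KIF6, TMEM235, PAQR6, CDC42EP1, HIPK2, TSPAN15, TMC7 and NKD2, with log2 fold changes from -3.03 to -1.34. The value of -3.03 was that of TMEM235, at 0 to 1.36 against 2.51 to 9.02 CPM, so its high group lay near the floor. OLFML2B, an olfactomedin-like secreted protein, was at 0.905 to 3.30 against 3.28 to 14.4 CPM (-2.54 ± 0.30, adjusted p = 0.00028). KIF6, a kinesin, was at 1.15 to 4.82 against 6.97 to 22.4 CPM with no overlap (-2.07 ± 0.25, adjusted p = 0.00028). HIPK2, a nuclear kinase, was at 77.7 to 110 against 126 to 385 CPM, also with no overlap (-1.34 ± 0.18, adjusted p = 0.000289).

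The 17 libraries between the groups, in which CUX2 ran from 71.4 to 129 CPM, give values from animals that neither group used. A slope on log2 CUX2 was fitted there, so each value is a log2 change per doubling of CUX2. No gene passed by edgeR (0 of 16022, with 575 positive and 642 negative slopes at an unadjusted p under 0.05, or 3.59% and 4.01%), while DESeq2 called 5 and 2 and limma-voom 2 and 0. Of the genes higher in the high group, 518 of 640 had a positive slope (80.9%), and of those lower, 717 of 811 had a negative one (88.4%). Over all genes, 58.8% had the same sign in both.

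The lists differed in how far they followed CUX2 within this narrower range. All 26 oligodendrocyte genes had a negative slope (median -1.73), and 25 reached an unadjusted p under 0.05. Of 33 upper-layer genes 26 had a positive slope (median 0.33), and 8 were positive and 0 negative at that p. The deep-layer list had a median slope of -0.10, with 23 of 36 negative and 1 in each direction at an unadjusted p under 0.05. All 19 fibroblast genes had a positive slope (median 0.78), 3 of them at that p.

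Among named genes, CALB1 had a slope of 1.23 (unadjusted p = 0.00129), INHBA 1.499 (unadjusted p = 0.00221) and HPCAL1 0.87 (unadjusted p = 0.00375). PENK, which separated the groups fully, had 0.58 (unadjusted p = 0.279), and ACVR1C 0.00051 (unadjusted p = 0.999). MBP had -1.47 (unadjusted p = 0.0489). FEZF2, which separated the groups, had -0.13 (unadjusted p = 0.747), and SEMA3E -0.54 (unadjusted p = 0.139). Of the deep-layer genes named above, THEMIS reached an unadjusted p under 0.05, with -1.81 (unadjusted p = 0.00226). Differences between these slopes were not tested.

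The 6 genes whose log2 CPM followed log2 CUX2 most closely over these 17 libraries, all of which share the library's depth, were ZNF827 (Pearson r 0.85), ZMYND19 (0.81), TTC28 (0.78), NTNG1 (0.77), ARHGAP32 (0.76) and MAN1C1 (0.76). ZNF827 and ZMYND19 did not differ between the high and low groups, with log2 fold changes of 0.08 ± 0.09 (adjusted p = 0.719) and 0.03 ± 0.16 (adjusted p = 0.947). The other 4 passed there, with values from 0.32 for TTC28 to 1.46 for NTNG1.

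**Figure D5:**
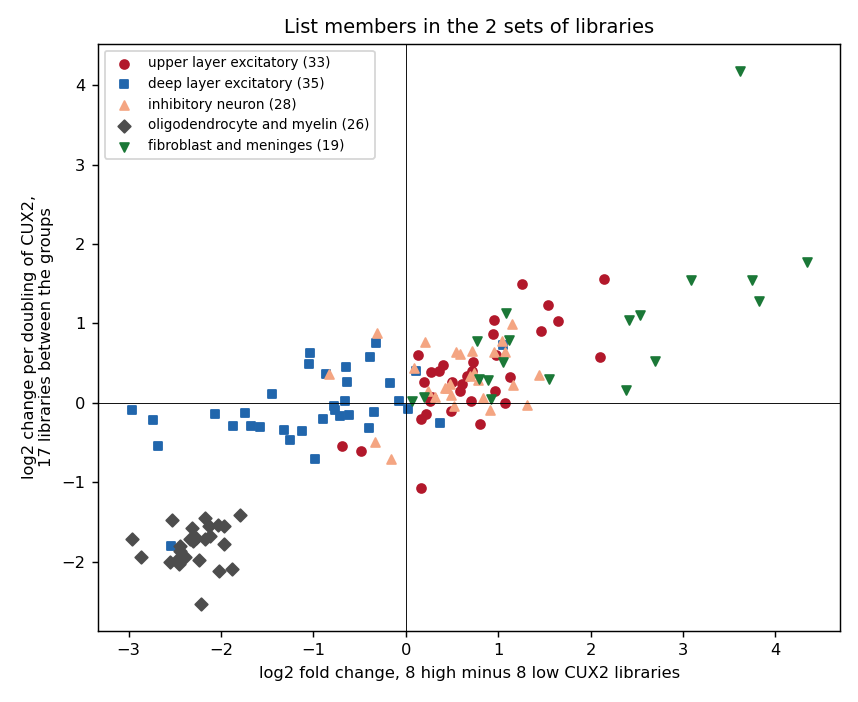
Members of 5 gene lists, with the log2 fold change between the high and low CUX2 groups on the x axis and the log2 change per doubling of CUX2 in the 17 libraries between the groups on the y axis. The 26 oligodendrocyte members lie together at lower left, and the 35 deep-layer members shown spread along the x axis with a median y value of -0.11.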

How the data were processed

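Total RNA of frozen cortex was depleted of ribosomal RNA and made into stranded libraries (KAPA RNA HyperPrep with RiboErase), per the labels' protocols. Tools listed in the submitters' processing notes were STAR 2.5.3, Partek and bcl2fastq, without their roles. For the build: not given in the sources used here. The authors deposited an estimated count per transcript, and a normalized signal that was used only as an alternative. Estimated counts of 89424 transcripts were summed per gene and rounded to whole numbers; rows naming no gene (0.256% to 1.48% of a library) were left out. Totals ran from 2500762 to 28495030 counts. Genes passing edgeR's filterByExpr were tested with edgeR 4.0.16 (TMM, robust quasi-likelihood fit, Benjamini-Hochberg adjustment) on the 16 libraries. Alternatives used DESeq2 1.42.0 and limma 3.58.1. CPM of genes other than CUX2 are TMM-scaled.

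The members and lists were chosen with earlier results of these data known. Lists can share members, so their counts are not independent. PENK is on the upper-layer and striatal lists, INHBA on the upper-layer and activity lists, and SLC17A6 on the general excitatory and thalamic lists. SEMA3E is on the deep-layer and axon guidance lists, and GRIK3 on the deep-layer and glutamate receptor lists. TBR1 is on the deep-layer and general excitatory lists, and SOX6 on the inhibitory neuron and oligodendrocyte precursor lists. Named genes were the 12 of smallest p per direction, up to 4 members of smallest p per list, a set of marker genes and the 6 most like CUX2; genes of the 2 highest-CUX2 libraries were singled out after their values were seen. On simulated counts the test recovered 77.6% of 98 genes changed by 1 on the log2 scale between the high and low groups, and 25% of 100 changed by 0.5; for the slope in the 17 libraries it recovered 46% and 2% of 100 genes each. Results on some genes are not reported here.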

Additional observations from a re-analysis of the deposited data

Results flagged for a closer look

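In 13 of 202 groups of 8 values examined, for the genes named above, the highest or lowest library lay far from the nearest other one against the whole range of its group (Dixon's test at its 95% critical value). Chance flags about 1 in 20 groups.

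Older replicate 4 was the highest of the low group for HPCAL1 (107 CPM, next 71.8), SLC17A7 (1004 CPM, next 760.0) and CLDN5 (21.2 CPM, next 11.6). Older replicate 1 was the highest of the low group for EPHA3 (45.6 CPM, next 24.1). Older replicate 6, the library of lowest CUX2, was the highest of that group for TSPAN15 (36.6 CPM, next 23.4) and the lowest for ZNF827 (52.5 CPM, next 66.2).

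In the high group, middle replicate 5, the member with the least CUX2, was the highest for the deep-layer gene NXPH4 (3.17 CPM, next 1.49), for SEMA3A (13.4 CPM, next 6.34) and for HIPK2 (110.4 CPM, next 89.5). These 3 genes were lower in the high group, so in each case this library was the one nearest to the low group. Younger replicate 2 was the highest for HBB (115 CPM, next 36.5) and HBA1 (115 CPM, next 42.3), and younger replicate 10 for MAN1C1 (77.2 CPM, next 59.96) and SPATS2L (82.2 CPM, next 65.9).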

How the results depend on the processing

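Other scalings, filters and tools kept the counts of 646 genes higher and 812 lower within 1.5 times, and leaving out single libraries gave 449 (without older replicate 6) to 725 (without older replicate 1) higher and 629 to 931 lower. Higher and lower counts were 187 and 433 with age as a covariate, 155 and 329 without the 3 libraries of lowest CUX2, 386 and 516 for the 8 highest against ranks 23 to 30, 241 and 327 without the 2 highest and 3 lowest, 19 and 100 without the 3 lowest and the R libraries, and 1578 and 1827 for a slope over all 33 libraries. With all 33 libraries in the fit 1043 were higher, and with the R mark as a covariate 316. With the oligodendrocyte score as a covariate 0 and 0 passed by edgeR (also with the fibroblast score added), 2 and 3 by DESeq2 and 0 and 0 by limma-voom. The settings that leave out the 3 lowest or the 2 highest libraries, the ranks 23 to 30 and the DESeq2 and limma-voom fits with the score were chosen after seeing the data.

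In the 17 libraries between the groups, where edgeR called 0 genes, DESeq2 called 5 positive and 2 negative slopes, limma-voom 2 positive, and edgeR without the filter 7 and 7. The age difference was -4.26 years for 6 against 6 libraries (exact permutation p = 0.0931) and -3.64 for 10 against 10 (permutation p = 0.0613). Of 111 called genes that the naming rule took, 99 no longer passed and 12 changed sign with the oligodendrocyte score as a covariate by edgeR, and 13 and 14 changed sign by DESeq2 and limma-voom. Among the genes named in the text, with the oligodendrocyte score as a covariate by edgeR, DESeq2 and limma-voom, log2 fold changes were 0.083, 0.0804 and 0.16 for S100B, and 0.12, 0.11 and 0.13 for CX3CR1. GRIA4 was at -0.027 by edgeR and -0.013 by DESeq2, and ACTA2 at -0.17 by limma-voom. With both scores ACTA2 was at -0.27, FOXP2 at 0.10 and TTC28 at -0.031. PCP4 was at -0.92 without the 2 highest libraries and -0.83 without these and the 3 lowest. The cause was not tested. Of the 111 genes, 54 no longer passed without the 3 lowest, 39 with age as a covariate and 3 to 16 when single libraries were left out. No paired analysis was possible because replicate numbers follow accession order and pair no animals.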
